A study of Drosophila melanogaster with 2 samples.

Results

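Among 5955 peaks of the CG13287-eGFP fusion protein on the chromosome arms, 630 (10.6%, 95% interval 9.81 to 11.4) had their summit inside a transcribed promoter region, downstream of the start site. These were the summits 50 to 500 bp downstream, in the gene's direction, of the nearest annotated start site of a protein-coding gene, with no protein-coding start site of the opposite strand within 500 bp of the summit. They lay at 612 start sites of 599 genes. The strand condition left out 189 of the 819 summits in that range. The classes set beside them, under the same strand condition, were 1308 summits 50 to 500 bp upstream of the start site and 1397 within 50 bp of it.

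The data come from chromatin immunoprecipitation followed by sequencing of whole Drosophila melanogaster embryos collected at 6 to 24 h, from a strain with an inserted CG13287-eGFP transgene. The tagged protein was pulled down with an antibody to GFP, from chromatin sheared to 200 to 800 bp by sonication. The 2 biological replicates form 1 group, with no control or other condition to compare, so each value is a description and no test over samples was possible. Whole embryos mix all tissues, so a peak cannot be assigned to a cell type, and the sources used here do not say which regulatory sequence drives the transgene. Signals are the authors' peak values, library depth is unknown, and intervals on shares of peaks or start sites (Clopper-Pearson, or Newcombe for differences) cover counting error only. Replicate 1 had 3997 filtered peaks on the arms and replicate 2 had 7340.

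At a promoter, RNA polymerase II is assembled over the core promoter around the start site, and in Drosophila it often pauses a short way into the gene before productive elongation. The sequence elements fall into families. Promoters of broadly expressed genes often carry the DNA replication-related element (DRE), bound by the factor Dref, together with sites of the insulator protein BEAF-32 and the core promoter motifs named after Ohler. Promoters of developmentally regulated genes more often carry an initiator, a TATA box, a downstream promoter element (DPE), a GC-rich pause button a short way after the start, or GAGA sites bound by the GAGA factor Trl.

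The sequences that follow show where such elements lay relative to the summit, all on dm6 (Release 6), written 5′ to 3′ on the strand of the gene, from the RefSeq genome. For 4 named members with summits in introns the summit base and 50 bases on each side are given because they hold no untranslated base, and the capital marks the summit.
CG5577 summit, chr3L:17841133-17841233, minus strand, summit at 244 bp: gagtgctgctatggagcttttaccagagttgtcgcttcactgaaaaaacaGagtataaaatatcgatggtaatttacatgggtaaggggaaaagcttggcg
Pfrx summit, chrX:19497067-19497167, plus strand, summit at 442 bp: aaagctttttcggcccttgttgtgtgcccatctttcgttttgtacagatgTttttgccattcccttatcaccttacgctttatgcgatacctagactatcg
spi summit, chr2L:19575278-19575378, minus strand, summit at 259 bp: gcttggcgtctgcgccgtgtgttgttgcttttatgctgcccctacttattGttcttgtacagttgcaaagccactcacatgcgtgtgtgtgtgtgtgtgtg
rno summit, chr3L:199217-199317, minus strand, summit at 495 bp: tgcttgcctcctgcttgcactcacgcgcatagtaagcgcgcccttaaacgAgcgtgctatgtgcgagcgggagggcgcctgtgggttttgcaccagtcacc

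For 68 of the 630 members (10.8%) a DRE lay just upstream of the start site while the summit lay downstream of it. That share was no higher than for upstream summits (11.4%) or summits at the start (16.5%). Strong peaks among the 68 members are printed with the element in capitals, and the set was chosen after its values were seen.
RpL26, chr3L:18898851-18898879, plus strand, DRE before the start site, summit at 88 bp: atgacagtgtTATCGATActagctgaatt
Fdx1, chr3L:9371256-9371284, minus strand, DRE before the start site, summit at 80 bp: taagtgtaatTATCGATAgcttttagtca
Hcf, chr4:359917-359945, plus strand, DRE before the start site, summit at 215 bp: gcaatctatgTATCGATAtttttcttctg
CG14995, chr3L:4103004-4103032, minus strand, DRE before the start site, summit at 74 bp: atgaaaagtgTATCGATAtttattttttt
alph, chr3R:29591778-29591806, plus strand, DRE before the start site, summit at 204 bp: cttcggttgcTATCGATAgccaatagctc

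For comparison, 3 strong upstream summits are shown, picked because a DRE lay under the summit itself.
Nrg, chrX:8517207-8517235, plus strand, summit at -144 bp: gagttacaaaTATCGATAagagcgtaggt
unk, chr3R:23157895-23157923, minus strand, summit at -68 bp: cgacaaaaatTATCGATAtcaatcgactt
Hsp110, chr3L:14036931-14036959, plus strand, summit at -51 bp: aattttgcacTATCGATAaatgtcgcaaa

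The pause button CGGACG was met in more downstream than upstream summit windows. It is shown in capitals, on either strand, at 5 strong downstream summits that hold it, again a set chosen after values were seen. The letters were matched anywhere in the window, and at B4, Hus1-like, Hakai and mbt they lay over 98 bp after the start site.
comm, chr3L:15728379-15728407, minus strand, summit at 53 bp: gctccagcgaaCGGACGcaccgaaaatcg
B4, chr2L:13549202-13549230, minus strand, summit at 113 bp: tccgcgttcccCGTCCGtgtgtgggtgta
Hus1-like, chr3R:4811949-4811977, minus strand, summit at 104 bp: tgcgactgctgCGGACGccatggagacca
Hakai, chr2L:19582291-19582319, minus strand, summit at 156 bp: gctcgcgggcgCGGACGtggccgaggacg
mbt, chrX:16610893-16610921, plus strand, summit at 199 bp: tttcccagtcgCGTCCGctgctatgcgtg

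Last, 2 further core promoter motifs that differed in share between 2 kinds of downstream peak are shown in capitals, 3 of each, chosen after values were seen. Ohler motif 7 (CANCNCTA) lay after the start site of members that overlap a stronger peak, and Ohler motif 6 (GTATNTTT) before the start site of members that do not.
Ohler 7 at alph, chr3R:29591853-29591881, plus strand: tgcttttttaCATCACTAgtcactttgtt
Ohler 7 at Usp1, chr3R:29229169-29229197, plus strand: atttctcttgCATCCCTAgtcgtccgctc
Ohler 7 at mbt, chrX:16610699-16610727, plus strand: cgataaacacCACCTCTAtttctggcatc
Ohler 6 at CycY, chr2L:11813831-11813859, minus strand: catttatctgGTATTTTTataccgcaaaa
Ohler 6 at dlg1, chrX:11389595-11389623, plus strand: tagataactaGTATTTTTtggtataactg
Ohler 6 at msn, chr3L:2586569-2586597, minus strand: taatcgcgggGTATTTTTcagttcgcgat

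The strongest downstream peaks were at genes of varied function. Named here are the 16 strongest among those that overlapped filtered peaks in each replicate. OstDelta, which encodes a subunit of the oligosaccharyltransferase, had the highest signal, 1298 at 84 bp, with 525.6 in replicate 1 and 753.7 in replicate 2. It was also 1 of the 5 members with a DRE under the summit. CG3760 followed with 1231 at 76 bp (540.9 and 694.9 in replicates 1 and 2), and the protein tyrosine phosphatase gene Ptpmeg2 with 956.4 at 165 bp (364.6 and 589.0). For these 3 genes the summits of the replicates lay within 9 bp of that of the list from both, so both libraries placed the peak downstream of the start.

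Sik3, a salt-inducible kinase gene, had a signal of 828.7 at 188 bp, in an intron. The Paf1 complex gene hyx had 755.2 at 105 bp, Smg5 of nonsense-mediated decay 732.0 at 80 bp and the phosphatase gene PRL-1 730.7 at 62 bp. The ribosomal protein gene RpL26 had 722.2 at 88 bp, with 345.3 in replicate 1 at 98 bp and 391.8 in replicate 2 at 79 bp. RpL26 thus combined a DRE just before its start site with a strong summit in the intron that follows.

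The dynein gene sw had 708.3 at 62 bp, but its replicate summits lay at 27 and 49 bp, short of the limit. CG5577 had 639.2 at 244 bp, and its replicate summits lay at 242 and 240 bp. The others were Tango10 (561.6), rtv of cuticle formation (546.0), the germline differentiation gene bgcn (531.1), Pfrx (517.5), pita (481.0) and BEAF-32 (473.2). Pfrx, which encodes an enzyme of fructose bisphosphate metabolism, and BEAF-32, an insulator protein, had the most distant summits of the 16, at 442 and 353 bp, both in introns.

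Most members lay close to the start site. Their median position was 131 bp (quartiles 80 and 184). Of the 630, 221 (35.1%) lay at 50 to 99 bp, 291 (46.2%) at 100 to 199 bp, 71 (11.3%) at 200 to 299 bp and 47 (7.46%) at 300 to 500 bp. The counts per bin fell from the start site outwards but stayed nearly level, at 76 to 85, from 75 to 174 bp, as the plot of summit positions shows. The share of members that overlapped a stronger peak was higher further out: 15 of 136 at 50 to 74 bp, 12 of 85 at 75 to 99 bp and 21 of 76 at 100 to 124 bp did so. It was 41 of 80 at 125 to 149 bp, 51 of 77 at 150 to 174 bp, 38 of 58 at 175 to 199 bp and 30 of 39 at 200 to 224 bp.

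**Figure D1:**
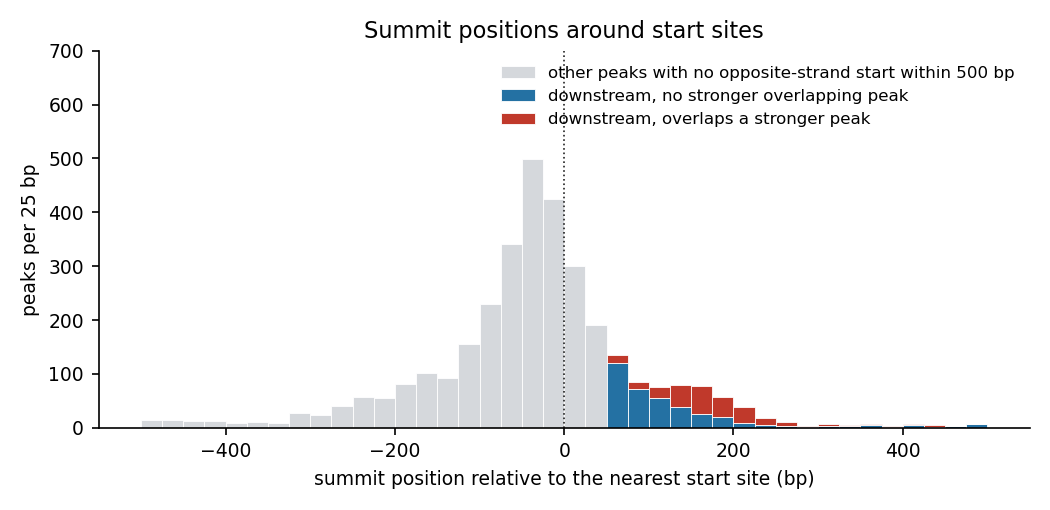
Number of summits per 25 bp (y axis) by position relative to the nearest start site in bp (x axis, gene's direction), for peaks of both replicates with no opposite-strand start site within 500 bp. Grey bars are other summits; blue and red bars are downstream members without and with a stronger overlapping peak, and red is the larger part between 125 and 249 bp.

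The class was divided into 2 kinds of peak, with and without a stronger overlapping peak. Of the 630 members, 240 (38.1%, 95% interval 34.3 to 42.0) overlapped a stronger peak of the same list, against 10.3% of upstream summits, 3.87% of summits at the start and 13.2% of all peaks. Members had lower signals than these classes, so this contrast is set in part by signal. Any other peak, stronger or weaker, was overlapped by 46.3% of members. The shares were 23.5% for upstream summits, 17.0% for summits at the start and 26.1% for all peaks. The distance between the summits of a member and its stronger neighbour was narrow, with a median of 203 bp and quartiles of 201 and 208, and 214 of 240 fell between 190 and 230 bp. No neighbouring summits in any of the filtered lists were under 199 bp apart, and in the list of both replicates 705 pairs lay at 199 to 230 bp against 29 at 231 to 262 bp. The spacing is thus a property of the whole list, and the sources used here do not say how the caller separated summits.

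The stronger neighbours mostly sat at the same start site. Of the 240 neighbours 224 had the same nearest start site, and 169 of these had their summit upstream of it, with a median position of -37 bp for the 224. Their median signal was 333, and the member had a median of 0.211 of its neighbour's signal. Leaving peaks beside a stronger one out of both classes changed the ratio of the median signal of downstream to upstream summits from 0.568 to 0.624. All 4 members whose deposited summit lay outside its own interval belonged to this kind, as did 97 members with a signal under 50, against 4 such members without a stronger peak. The division is itself made by signal: the member is by definition the weaker of the pair, so low signals collect in this kind.

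The replicate lists showed the same division. Of downstream summits in replicate 1's own list 39.3% overlapped a stronger peak, against 9.40% of upstream summits. In replicate 2's list the shares were 25.3% and 9.29%. Downstream summits had the lower median signal in these lists too, so both contrasts are again set in part by signal. The median distance to the stronger summit was 202 bp in replicate 1 and 204 bp in replicate 2.

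The promoters of the 2 kinds carried different elements. Within the 100 bp before the start site, a DRE (TATCGATA, either strand) was present at 53 of 238 start sites (22.3%) of members that overlapped a stronger peak, but at 15 of 390 (3.85%) of the others, a difference of 18.4 percentage points (95% interval 13.0 to 24.3). The shorter BEAF-32 letters CGATA, part of every DRE, were present at 64.3% and 20.3%. Ohler motif 7 lay within 50 bp after the start at 15.5% and 2.31%. Over all 19276 protein-coding start sites the shares were 5.13% for the DRE, 25.8% for CGATA and 3.62% for Ohler motif 7. For members without a stronger peak the interval lay below that background for CGATA (16.4 to 24.6) and included it for the DRE (2.17 to 6.26) and Ohler motif 7 (1.06 to 4.34). These elements are not particular to downstream peaks. Upstream summits without a stronger peak had 11.5% for the DRE, 42.5% for CGATA and 5.29% for Ohler motif 7. Such summits at the start had 17.0% for the DRE and 10.6% for Ohler motif 7. Within 50 bp of the stronger neighbours' own summits a DRE lay in 22.5%.

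Other elements were more frequent at members without a stronger peak. Ohler motif 6 lay in the 100 bp before 14.1% of their start sites, against 6.30% for members beside a stronger peak and 5.91% of all start sites. GAGAGAG, a site of the GAGA factor, was present there at 8.97%, 1.68% and 3.47%. The M1BP site GGTCACACT lay within 50 bp after the start at 6.67%, 0.840% and 1.80%, and the initiator letters TCAGT at 22.3%, 13.0% and 17.6%. The repeat CACACACA was found at 50 to 200 bp in 8.46%, 2.52% and 3.55%. At start sites of upstream summits without a stronger peak the shares, in the same order of motifs, were 6.49%, 7.34%, 2.48%, 17.6% and 5.29%. At those of summits at the start Ohler motif 6 had 8.41% and M1BP 4.32%.

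These comparisons came from 87 combinations of 29 motifs and 3 windows, of which 4 differences had an interval above 0, 6 had one below 0 and 77 held 0, with no adjustment for their number. Those for the DRE, CGATA and Ohler motif 7 had intervals above 0 in each replicate's own list too. There, the DRE was present at 26.9% and 7.43% in replicate 1 and at 13.5% and 3.47% in replicate 2. Those for GAGA, M1BP and CACACACA had intervals that held 0 in both replicate lists, and that for Ohler motif 6 held 0 in replicate 2 alone. The difference for the initiator was not examined in the replicate lists. The stronger neighbours had a median signal of 333, and the share of upstream-class summits with a DRE went from 2.86% at signals up to 117 to 27.2% at signals over 351. The part of the neighbour's signal in the division was not tested.

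**Figure D2:**
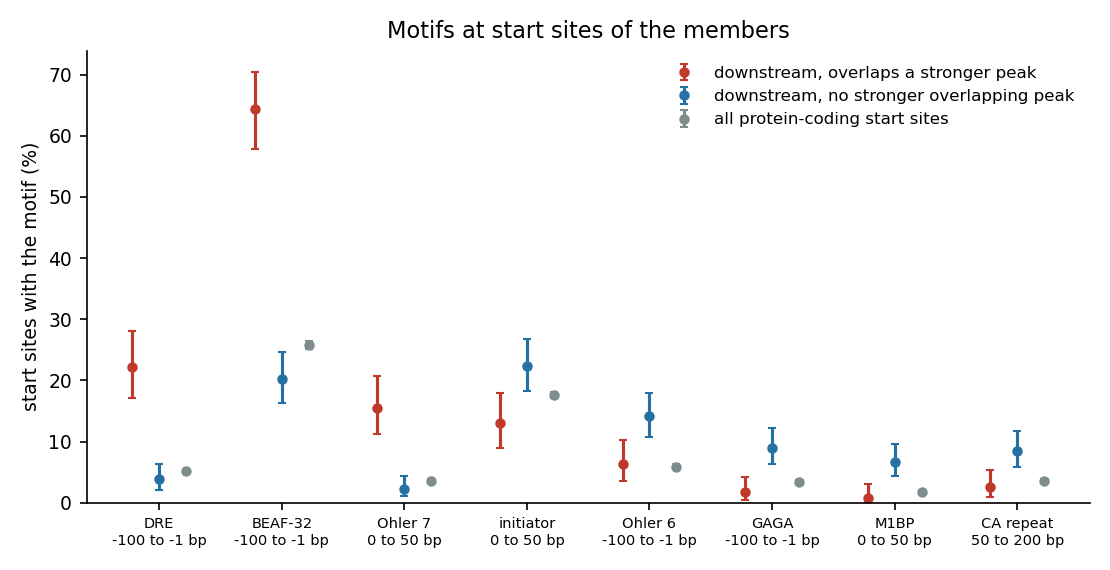
Share of start sites in % (y axis) that hold each motif in the window given under its name (x axis, bp from the start site). Points are shares and bars 95% exact intervals, for 238 start sites of members beside a stronger peak (red), 390 of the other members (blue) and 19276 protein-coding start sites (grey); DRE, BEAF-32 and Ohler 7 are higher in red and the last 5 motifs in blue.

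Around the start site the DRE of members beside a stronger peak was concentrated before it, as the motif profile shows. Among upstream summits a DRE was present before the start site of 10.4% of those that overlapped a stronger peak and 11.5% of those that did not. Among summits at the start the order was the other way, with 2 of 54 (3.70%) and 228 of 1343 (17.0%). These differences between classes were not tested.

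**Figure D3:**
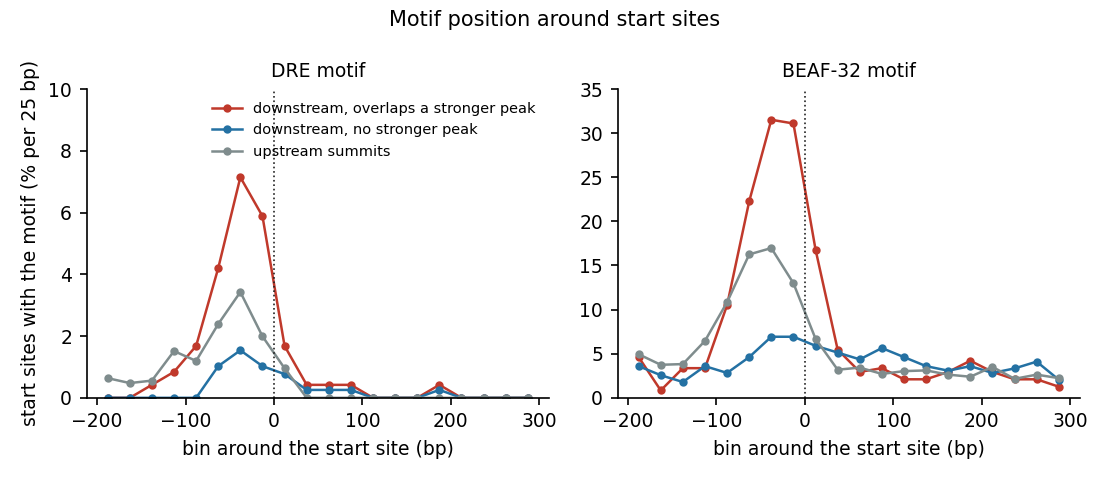
Share of start sites in % (y axes) with the DRE (left) or the BEAF-32 letters (right) in bins of 25 bp around the start site (x axes, bp). Red and blue lines are downstream members with and without a stronger overlapping peak and grey lines the upstream class; red is highest in the bins just before the start site in both panels.

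Under the summit itself the DRE was rare. It was found in 5 of 630 windows of 50 bp on each side of member summits (0.794%, 95% interval 0.258 to 1.84), against 11.9% at upstream summits, 19.0% at the start and 11.6% over all peaks. The difference from upstream summits was -11.1 percentage points (95% interval -13.0 to -9.11). It was below 0 in each of 4 bins of signal and 4 bins of GC content. In every bin, however, member windows hold no base before the start site, so the bins cannot separate the difference from position. Over all protein-coding start sites a DRE lay in the 100 bp before the start at 5.13% and at 50 to 300 bp after it at 0.643%. The comparison moves with position: at the same distances downstream of the start sites of the upstream class 0 of 1308 windows held a DRE, which allows a share of up to 0.229% by 3 counts and 0.282% by the exact interval. Mirrored windows, at the same distance upstream of the members' own start sites, held one in 2.86%.

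Some motif letters were more frequent under member summits than at upstream summits. The letters were matched at any position in the window, whatever their distance from the start site. The pause button was present in 37 windows (5.87%), against 1.53% at upstream summits, 1.75% in the mirrored windows and 2.33% over all peaks. The DPE letters GACGTG had 4.29%, 1.30% at upstream summits and 1.27% in the mirrored windows. KLF/Sp letters (GGGCGG) had 5.08%, 1.76% and 1.11%, and the Snail-type E-box (CAGGTG) 6.51%, 3.75% and 1.90%. For these 4 the share stayed above that of the upstream class in both replicate lists, where the pause button had 4.80% against 1.45% in replicate 1 and 6.68% against 1.30% in replicate 2. The pause button share was not raised at every signal. At signals up to 117, where 348 members lie, it was 3.74% against 2.86% at upstream summits, with an interval of the difference that held 0. It was 8.06% against 0.958% from 117 to 178, 12.3% against 1.74% from 178 to 351, and 0 of 23 members against 0.809% above that. In the lowest of 4 bins of GC content it was in 0 of 65 members, and in the next the interval of the difference held 0. The pause button was in 29 of the 390 windows of members without a stronger peak (7.44%) and in 8 of 240 of the others (3.33%).

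Part of this goes with position. In windows at matching distances downstream of the upstream class's start sites the pause button had 3.67%, leaving a difference of 2.20 percentage points (0.240 to 4.50). Within 50 bp after the start site it was at 4.58% of the members' start sites and 4.86% of the upstream class's. By bins of 25 bp the pause button was most frequent at 25 to 49 bp, at 3.92% of the members' start sites. That bin ends short of the 50 bp from which members were counted. The E-box CAGCTG, at 9.05% of member summits, had a larger difference at matching distance, 4.61 percentage points above the 4.43% of the upstream class (2.25 to 7.30). It was, however, at 7.80% of upstream summits, 16.5% of those at the start and 10.4% of all peaks. Its difference from upstream summits was 1.57 percentage points in replicate 1 and -2.01 in replicate 2, both with intervals that held 0. The largest matched difference was that of CGATA, 4.85 (1.48 to 8.45). In all 29 motifs, 9 matched differences had an interval above 0, 2 below and 18 held 0, unadjusted.

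The base composition differed across the start site. Member windows had a median GC content of 47.5% and their mirrored windows 35.6%, against 41.6% at upstream summits. The TATA letters TATAAA were in 5.87% of member windows and 16.5% of mirrored windows, Ohler motif 6 in 2.06% and 8.89%, and the homeodomain letters TAATTA in 4.76% and 8.73%. At all protein-coding start sites TATAAA was present in 39.6% from -250 to -1 bp and in 19.8% from 50 to 300 bp. Ohler motif 6 had 12.9% and 6.90% in these ranges. A difference across the start site is thus not particular to members. Among 2080 words of 6 bases counted on either strand, the 8 with the largest excess under member summits had 9.05% to 12.2% of windows, against 2.06% to 4.92% in the mirror. CGGAAA led them with 11.0% and 3.33%, and the word AGCAGC had 12.2% and 4.92%. The 8 words with the largest deficits held only A and T, led by TAAAAA with 11.3% and 32.5%. At upstream summits and summits at the start CGGAAA had 5.12% and 6.51%, AGCAGC 7.72% and 9.31%, and TAAAAA 23.5% and 17.8%.

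Signal was lower than in the neighbouring classes. Members had a median of 112 (quartiles 75.1 and 151), upstream summits 197 (125 and 400) and those at the start 206 (136 and 435). The ratio of the downstream to the upstream median was 0.568, and it was 0.572 in replicate 1's own list and 0.666 in replicate 2's. Of the 1000 strongest peaks, which are 16.8% of the list, 14 were members and 256 were upstream summits. Since signals of single replicates may be on another scale than the list of both, only ratios within a list are compared.

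**Figure D4:**
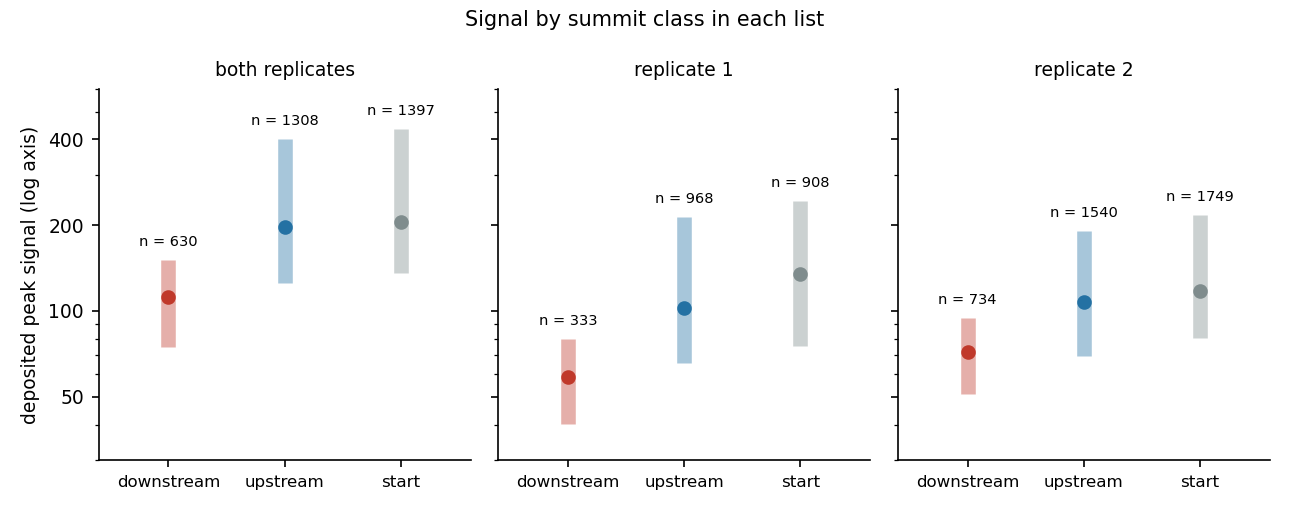
Deposited peak signal (y axis, log scale) by summit class (x axis) in the list of both replicates and in each replicate's own filtered list. Dots are medians and bars run between quartiles, with the number of peaks above each; the downstream class is lowest in all 3 lists.

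Within the members the signal fell with distance, from a median of 130 at 50 to 99 bp to 103 at 100 to 199 bp and 78.2 at 200 to 299 bp, and it was 102 at 300 to 500 bp. Upstream summits at the same distances had 262, 178, 160 and 129. Members without a stronger overlapping peak had a median of 131, and those with one 64.4. That division is itself made by signal, so these medians repeat it in part.

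Replicate 2 held nearly all members, and replicate 1 fewer of them. Of the 630, 581 (92.2%) overlapped a filtered peak of replicate 2, against 94.2% of all peaks, and 339 (53.8%) one of replicate 1, against 67.3% of all peaks. The replicate 1 share was 76.7% for members beside a stronger peak, where the overlap can be with that peak, and 39.7% for the others. Neither replicate held 38 members (6.03%, interval 4.30 to 8.19), against 4.40% of all peaks, a share inside that interval. It was 4.05% for upstream summits and 2.72% for summits at the start, both below the interval.

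The position of the summit differed more between replicates than in the upstream and start classes. The nearest overlapping peak in each replicate's unfiltered list had its summit 50 to 500 bp downstream in both replicates for 385 of the 628 members found in both. The median position was 126 bp in replicate 1 and 85 bp in replicate 2, and the replicates differed by a median of 46.5 bp, against 24 bp for upstream summits and 20 bp for those at the start. For 20 members both replicates put the summit upstream of the start site. Both replicate summits were in range for 50.4% of members beside a stronger peak and 67.7% of the others. For members beside a stronger peak, the replicate peak taken can be that neighbour. Among the 385 the DRE was still rare under the summit (1.30%) and 68.1% lay in 5' untranslated regions.

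**Figure D5:**
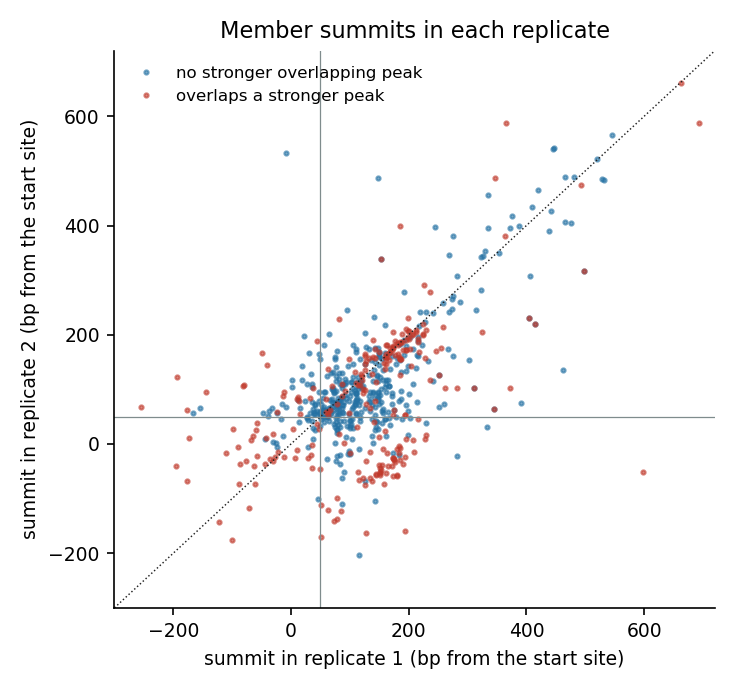
Summit position of each member in replicate 2 (y axis) against replicate 1 (x axis), both in bp from the start site, taken from the overlapping peak with the nearest summit in each unfiltered replicate list. Blue and red points are members without and with a stronger overlapping peak, thin lines mark 50 bp and the dotted line equality; a cloud of red points lies downstream in replicate 1 and near or before the start in replicate 2.

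In the annotation most members lay in untranslated sequence of the first exon. The summit was in a 5' untranslated region for 442 (70.2%), in coding sequence for 87 (13.8%), in an intron for 99 (15.7%) and in another exon for 2. It lay within the first exon for 516 (81.9%), and before the start codon for 497 (78.9%). The rule puts every member 50 to 500 bp inside the gene, so these shares follow in part from the selection. The members' median first exon was 322.5 bp, and their median distance from start site to start codon 413.5 bp. The 5' untranslated share was 40.2% for summits at the start and 26.1% for all peaks. A comparison with positions at matching distances was not made. The peak interval covered the start site in 554 (87.9%), against 79.5% of upstream peaks, 99.4% of those at the start and 77.1% of all peaks. Its width was exactly 550 bp in 398 members (63.2%), against 39.1% of upstream peaks. Cover of the start site depends on width and distance together. With distance the share in introns went from 4.52% at 50 to 99 bp to 63.8% at 300 to 500 bp. A noncoding start site was nearer in 7 cases, among them tRNA:Gly-TCC-1-1 and mir-1008, which are small RNA genes.

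By function, 4.29% of 13968 protein-coding genes had such a summit, and 30.4% were nearest to any summit within 500 bp. Signalling genes had the largest number, 9 of 47 (19.1%, 95% interval 9.15 to 33.3): spi, an Egfr ligand, fz2, a Wingless receptor, the repressor gene aop, the Wingless pathway genes arr, arm and pan, the ligand gene dpp and its antagonist sog, and the Hedgehog pathway kinase gene fu. The spi summit, at 259 bp in an intron, had a signal of 203.3 and lay at 259 bp in both replicates, although only replicate 2 kept it after filtering. The fz2 summit, with a pause button in its window, had 195.6 at 56 bp, and its replicate summits were at 28 and 48 bp. Of the 33 signalling genes with any summit within 500 bp, 9 (27.3%) had a downstream one, against 14.1% of all genes with a summit. No interval was computed for that share of few genes, so a preference of signalling genes for downstream summits is not shown.

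Insulator and promoter factor genes had 4 of 20, namely pita, BEAF-32, Ibf1 and su(Hw), with a median signal of 294. Polycomb and trithorax genes had 5 of 33, led by ph-p of the Polycomb complex (255.9 at 458 bp) and ash2 of the trithorax group (170.4 at 67 bp). Genes of the ecdysone response had 4 of 21, among them Eip63E (162.5 at 112 bp) and the nuclear receptor gene Eip75B (158.2 at 274 bp). The intervals of these shares are wide, and only those of signalling, ecdysone, insulator, and Polycomb and trithorax genes lay above 4.29%, among 17 lists. The same lists also had high shares in the neighbouring classes. Signalling genes had an upstream summit in 16 of 47 (34.0%) and ecdysone genes in 33.3%, against 8.55% of all genes, and insulator genes a summit at the start in 7 of 20, against 9.84%.

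Cytosolic ribosomal protein genes had 7 of 92, with RpL26 and RpS3 (164.2 at 85 bp) the strongest. Mitochondrial ribosomal protein genes had 4 of 73, led by mRpS6 (153.7 at 62 bp) and mRpL40 (128.4 at 165 bp, beside a stronger peak). Genes of oxidative phosphorylation had 2 of 86, ATPsynB (123.0) and SdhB (122.9), and the proteasome none of 48, although 22 proteasome genes had a summit within 500 bp. Cell cycle genes had 1 of 42, the Cdk inhibitor gene dap (83.05 at 95 bp), against 13 with an upstream summit.

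Among tissue genes the counts were small. The Notch pathway had 2 of 21, numb (122.4 at 56 bp) and the ubiquitin ligase gene Su(dx) (51.92 at 159 bp). Neurogenesis had 3 of 35, with brat (137.4 at 323 bp) and nub (135.1 at 74 bp) the strongest. Epidermis and trachea had 2 of 23, rtv and the septate junction gene cora (169.1 at 65 bp), and muscle 1 of 31, sns of myoblast fusion (107.0 at 78 bp). Segmentation and Hox genes had 1 of 29, the pair-rule gene odd (114.1 at 114 bp), and heat shock genes 1 of 18, Hsc70-4. Cuticle proteins had none of 70 and chemoreceptors none of 179, and in each of these lists 1 gene had a summit within 500 bp.

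The kinds of member were also counted in each list, and a gene with both kinds counts under each. Over all protein-coding genes 386 had a member without a stronger peak and 237 one beside a stronger peak. These counts were 8 and 2 in signalling genes and 6 and 1 in cytosolic ribosomal protein genes. They were 3 and 3 in Polycomb and trithorax genes, 1 and 1 in Notch pathway genes and 1 and 3 in mitochondrial ribosomal protein genes. Ecdysone genes had 3 and 2, and insulator and promoter factor genes 3 and 1. With so few genes per list, a difference from the split over all genes is not shown, and none was tested.

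At the limits of the range the values ran on without a break. Just inside 50 bp were Mnn1 (224.8), the homeobox gene ems (17.40) and the innexin gene Inx3 (140.1), and just outside, at 49 bp, CG42673 (109.1), Elp6 (106.4) and Esyt2 (140.6). For ems, which overlaps a stronger peak, the replicates placed the summit at -123 and -142 bp. Just inside the far limit were 14-3-3zeta (132.9 at 489 bp), Hsc70-4 (123.3 at 489 bp) and rno (144.8 at 495 bp), and just outside it ZnT41F (107.5 at 512 bp), HDAC1 (121.4 at 515 bp) and raw (109.4 at 521 bp). In replicates 1 and 2 the 14-3-3zeta summit lay at 520 and 522 bp, beyond the limit in both. The rno summit lay at 529 and 485 bp and that of Hsc70-4 at 465 and 488 bp. Of those outside, ZnT41F lay at 510 and 553 bp, HDAC1 at 430 and 533 bp and raw at 560 and 485 bp.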

How the data were processed

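The deposited peak lists on dm6 were used, and reads were not analysed here. The authors' lists derive from filtered alignments and were ranked and filtered by the irreproducible discovery rate, per the listing deposited with the samples. The deposited signal is the peak caller's value, and the deposited summit offset counts bases from the peak start. For the aligner, the caller and the scaling to a control, these sources give nothing that could be used. In the ranked lists of both replicates 8 unnamed per-sample columns (13 to 20) were not used.

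Members were taken from the conservative list, made from both replicates, and each replicate's filtered list was set beside it. Replicate positions and signals came from each replicate's ranked list, as the overlapping peak (1 bp) with the nearest summit. Start sites came from the Ensembl BDGP6.54 annotation (release 115), and sequence from the RefSeq Release 6 genome, whose arm lengths hold all peaks. Summits were annotated in the order 5' untranslated region, coding, other exon, intron. Motifs (29) were matched letter by letter on both strands within 50 bases on each side of the summit, or in windows from the start site. Intervals are 95% Clopper-Pearson, or Newcombe for differences, computed with Python 3.11.15, pandas 2.3.3, numpy 2.4.6 and scipy 1.17.1. Placement, motif search and intervals were tested on simulated data.

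Named members follow a rule: the 16 strongest in both replicates, 3 on each side of each distance limit, up to 2 by signal of each of 17 gene lists, the 8 motifs and 8 words of 6 bases that differ most from mirrored windows, and sequences of named members, of which those on arm 2R were not used. Other names, and sequences said to be chosen afterwards, are outside it. Of the symbols written into the gene lists 8 did not match the annotation and were not counted. The members and lists were chosen with earlier results of these data known, and the division by a stronger overlapping peak was made after the values were seen.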

Additional observations from a re-analysis of the deposited data

How the results depend on the processing

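The number of members was 630. It was 409 from 100 bp on, 96 among peaks above the median signal, 390 without peaks that overlap a stronger peak and 385 with both replicate summits in range, and 333 to 734 without a replicate. The signal ratio of 0.568 became 0.496 with no opposite-strand rule, and 0.572 to 0.666 without a replicate. The DRE share under the summit, 0.794%, became 3.05% with only the 5'-most start of each gene, 2.08% above the median signal, 2.54% within 100 bp on each side and 3.97% for the core ATCGAT. Its difference from upstream summits stayed below 0 under all these settings, and reversed to 0.794 percentage points against windows mirrored about the start sites of the upstream class. That from mirrored windows, -2.06, changed sign to 0.635 against windows 500 bp further downstream, with an interval of -0.229 to 1.69 that holds 0. The share in 5' untranslated regions, 70.2%, became 58.7% from 100 bp on, 76.0% above the median signal and 75.6% without peaks that overlap a stronger peak, and 65.5% to 74.9% without a replicate. Recurrence in replicates 1 and 2, 53.8% and 92.2%, became 33.0% and 62.4% when the summits had to lie within 100 bp, and 39.7% and 89.7% without peaks that overlap a stronger peak. Settings on the stronger peak, both replicate summits, bins of signal or GC content and the upstream class's mirrored windows were chosen after seeing the data. Other causes of these changes were not tested. No paired analysis was possible because the 2 replicates form 1 group. The number of replicates, and unknown depth, limit all values.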
